A study of Mus musculus with 12 samples.

Results

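Term fetal liver still makes red blood cells, and 35 genes of that erythroid program were followed in livers with and without the nuclear receptor PPARα. The members were listed by name, with earlier results of these data known, and were looked up by gene symbol among 19938 measured genes. Of the 35, 34 had a probeset that carried their symbol alone, and Ahsp was not analysed here. The arrays held 6 *Ppara*-/- and 6 *Ppara*+/+ whole livers, 1 fetus per array, taken by cesarean section at E19.5 (embryonic day). Both genotypes came from matings between heterozygotes, so that mothers had the same genotype in both groups. The labels give the strain as SV129, the study's methods name a C57BL/6 background, and the livers came from several litters per genotype that the labels do not identify. No treatment is named for either group. Deletion of *Ppara* was in every cell of the fetus, so a difference in blood cells and one in hepatocytes can both carry to whole liver.

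Blood formation moves from the liver to the bone marrow around birth, and until then erythroid precursors lie between the hepatocytes on islands around macrophages. The hormone erythropoietin acts through its receptor and STAT5 to keep the precursors alive, while GATA1, TAL1, LMO2 and KLF1 switch on the genes of the red cell membrane, of haem and of globin. The first red cells of the embryo carry the globins ζ, εy and βh1, which give way to adult chains in liver-derived cells, under the repressors BCL11A and SOX6. In whole-liver RNA, fewer cells of a type and less RNA per cell cannot be told apart.

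The targeted gene went with the labels. *Ppara* signal lay between 9.66 and 9.94 (log2) in the knockouts and between 10.71 and 10.95 in the wild types, a difference of -1.01 ± 0.06 (SE, n = 6 per genotype; limma adjusted p = 3.6e-08). Array medians over genes ranged from 7.13 to 7.17. Of the 34 erythroid genes measured, 32 lay above the median of every array in every liver, and *Hbb-y* and *Hbb-bh1* did not. Sex-linked transcripts marked 1 knockout (mouse 2) and 3 wild types (mice 2, 3 and 4) as male.

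Upstream sequences are printed for 4 members, the 2 embryonic globins that moved most between livers and the 2 nearest the threshold for genotype. The globin pair was picked after its values were seen. Each run is the 250 bases before the annotated start, 5′ to 3′ on the gene's strand, from RefSeq on GRCm38.p6, with 28 of the 34 members present in that set. Capitals mark 4 motifs searched on both strands. They are AGATAA (a form of the GATA factor site), CCNCNCCC (the CACCC type that KLF1 reads), CCAAT and TATAAA. Other forms of the GATA site, such as TGATAA, were not searched and stay in small letters where present. So do CACCC letters outside CCNCNCCC, such as the ccaccc in the *Hbb-y* and *Hba-x* runs.
Hbb-y (chr7:103853208-103853457, minus strand): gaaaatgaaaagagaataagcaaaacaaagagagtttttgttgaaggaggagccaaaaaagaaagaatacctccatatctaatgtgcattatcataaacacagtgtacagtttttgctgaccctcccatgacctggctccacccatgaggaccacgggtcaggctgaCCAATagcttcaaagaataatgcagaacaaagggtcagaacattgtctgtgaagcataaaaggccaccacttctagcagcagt
Hba-x (chr11:32276350-32276599, plus strand): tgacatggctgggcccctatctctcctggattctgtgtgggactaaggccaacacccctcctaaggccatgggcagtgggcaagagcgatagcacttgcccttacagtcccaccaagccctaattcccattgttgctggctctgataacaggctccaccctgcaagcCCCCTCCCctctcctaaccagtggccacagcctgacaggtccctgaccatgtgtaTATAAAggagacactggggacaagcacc
Xk (chrX:9272534-9272783, plus strand): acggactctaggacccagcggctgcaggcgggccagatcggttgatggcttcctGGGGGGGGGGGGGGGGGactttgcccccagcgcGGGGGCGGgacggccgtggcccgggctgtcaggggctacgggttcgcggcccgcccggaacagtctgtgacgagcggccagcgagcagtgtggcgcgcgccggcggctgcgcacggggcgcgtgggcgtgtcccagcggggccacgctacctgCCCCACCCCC
Rhag (chr17:40810899-40811148, plus strand): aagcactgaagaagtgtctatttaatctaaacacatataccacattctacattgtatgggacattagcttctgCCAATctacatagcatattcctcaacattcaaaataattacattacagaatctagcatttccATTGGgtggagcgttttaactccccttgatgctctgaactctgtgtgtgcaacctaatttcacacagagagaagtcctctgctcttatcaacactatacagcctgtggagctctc
The *Hbb-y* run held CCAAT 83 bases before the start, and that of *Hba-x* held a CACCC-type match at the same distance and TATAAA at 28. The *Xk* run held CACCC-type matches only, several of them overlapping copies within 1 stretch of G, and *Rhag* held CCAAT once on each strand. Over the 34 upstream runs of the 28 members (some genes have several starts), 23.5% held AGATAA, 55.9% CCNCNCCC, 35.3% CCAAT and 14.7% TATAAA, beside 9.99%, 45.9%, 33.8% and 12.4% of 32851 runs of the same length over all genes. Such matches describe letters and not binding.

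No erythroid gene passed the test for genotype. At a limma adjusted p under 0.05, 0 of 34 members were called in either direction, where 7.24% of all genes were called, 3.82% lower and 3.42% higher in *Ppara*-/- livers. At an unadjusted p under 0.05, 8 members (23.5%) passed, beside 20.9% of all genes. The knockout and wild-type values of every member overlapped, while 3.59% of all genes had groups without overlap. The median difference over the 34 members was 0.09 on the log2 scale against 0.01 over all genes, and 24 members (70.6%) had a positive difference against 53.5% of all genes.

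The estimates were narrow. Single differences ran from -0.15 (*Trim10*) to 0.47 (*Hbb-y*), and 31 of 34 lay within 0.2 of zero. For 32 members the whole 95% interval lay within 0.5 either way, a 1.41-fold change. The SD between livers of a genotype had a median of 0.11 over the members, as over all genes, and was lowest for *Slc4a1* (0.06) and highest for *Hbb-y* (0.49).

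**Figure D1:**
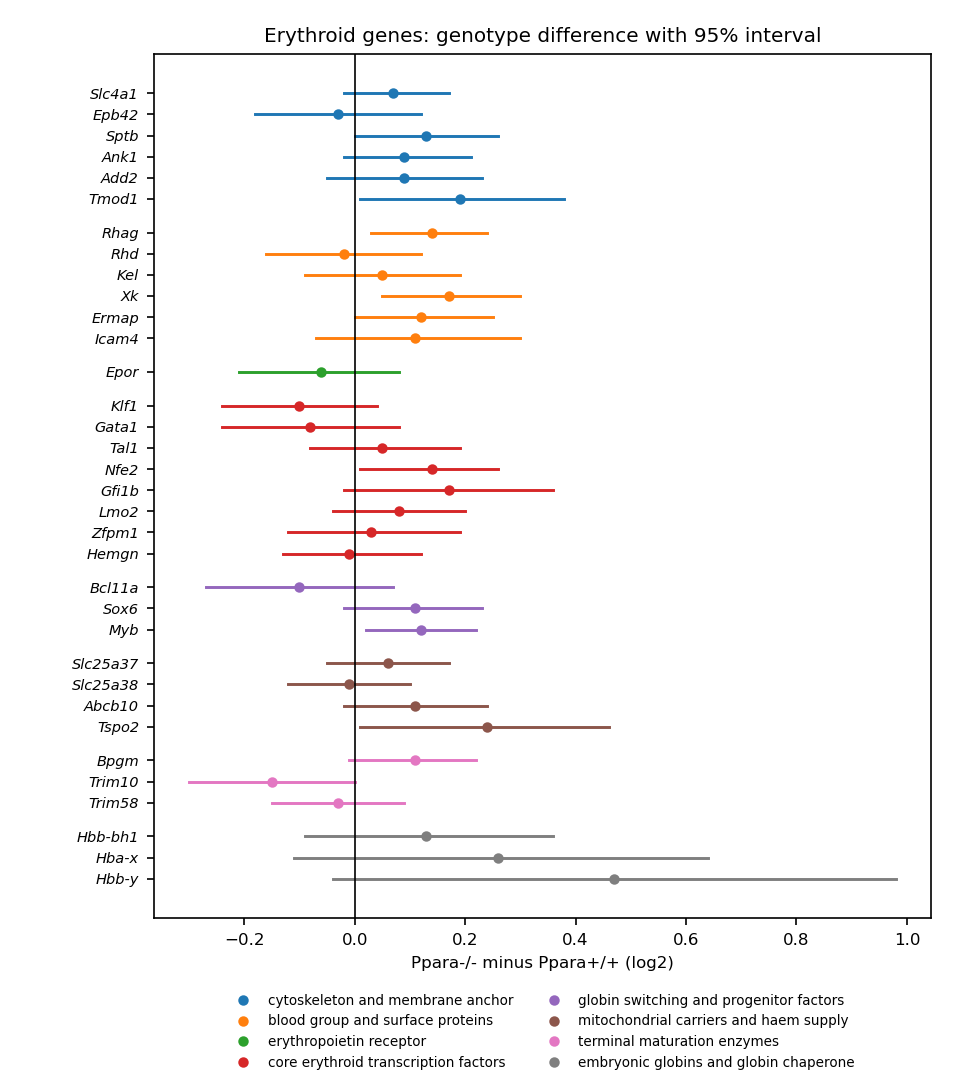
Difference between *Ppara*-/- and *Ppara*+/+ livers (log2, x axis) for 34 erythroid genes, coloured by role. Points are limma estimates and lines their 95% intervals (6 livers per genotype); most intervals cross or nearly touch zero, and those of *Hba-x* and *Hbb-y* reach farthest.

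Genes of the membrane skeleton, which gives the red cell its shape, differed by 0.09 in the median of 6 members. *Slc4a1*, the anion exchanger band 3 that anchors the skeleton, had a difference of 0.07 with an interval from -0.02 to 0.17. *Sptb*, β-spectrin, ran from 10.95 to 11.10 (median 10.98) in knockouts and from 10.62 to 10.98 (median 10.91) in wild types. Its lowest wild-type value, that of mouse 4, stood apart from the other 5, and its difference was 0.13 (adjusted p = 0.23). *Tmod1*, which caps actin filaments, differed by 0.19 (adjusted p = 0.22), and *Ank1*, *Add2* and *Epb42* by between -0.03 and 0.09.

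The blood group proteins held the member with the smallest p. *Xk*, whose protein is linked to the Kell antigen in the membrane, ran from 9.60 to 9.81 (median 9.74) in knockouts and from 9.38 to 9.69 (median 9.57) in wild types. Knockout values were mostly the higher ones, but 2 of the wild types lay inside their range. The difference was 0.17 ± 0.06 (SE, 95% interval 0.05 to 0.30, limma adjusted p = 0.086), and it passed the test without knockout mouse 1 (0.20, adjusted p = 0.041) or wild-type mouse 6 (0.20, adjusted p = 0.038). *Rhag*, the partner of the Rh antigens, ran from 11.34 to 11.53 (median 11.42) against 11.16 to 11.41 (median 11.30). Here 1 wild type reached into the knockout range, and the difference of 0.14 ± 0.05 (SE) had an adjusted p of 0.14. *Rhd*, *Kel*, *Ermap* and *Icam4* differed by between -0.02 and 0.12.

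Neither the receptor for erythropoietin nor any of the 8 core transcription factors passed the test. *Epor* ran from 8.98 to 9.37 (median 9.29) in knockouts and from 9.14 to 9.44 (median 9.34) in wild types, a difference of -0.06 (interval -0.21 to 0.08). Its lowest value, in knockout mouse 4, lay well under the next knockout, 9.25, and closer to wild-type mouse 4, 9.14. *Klf1*, the factor for the adult globin and membrane genes, differed by -0.10 (interval -0.24 to 0.04) and *Gata1*, the master factor of the lineage, by -0.08 (interval -0.24 to 0.08). The remaining 6 factors ran from -0.01 (*Hemgn*) to 0.17 (*Gfi1b*), with *Nfe2*, the partner of small MAF proteins at globin enhancers, at 0.14 (adjusted p = 0.19).

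**Figure D2:**
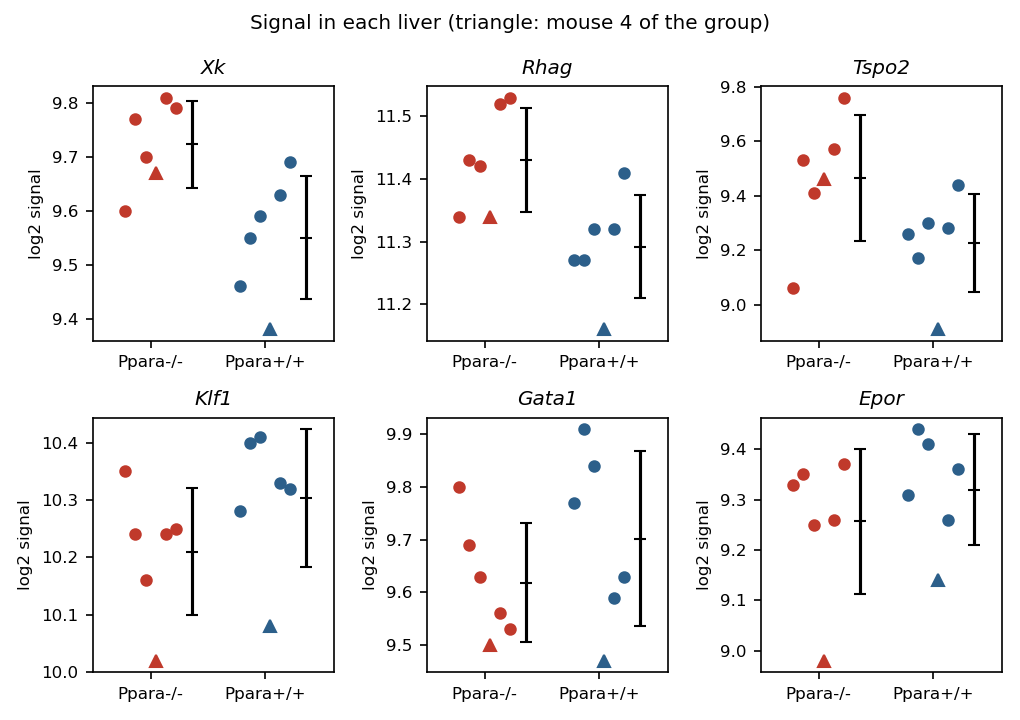
Log2 signal in each of the 12 livers for *Xk*, *Rhag*, *Tspo2*, *Klf1*, *Gata1* and *Epor*, with the mean and SD of each genotype in black (n = 6). Triangles mark mouse 4 of each genotype: wild-type mouse 4 is the lowest wild type in all 6 plots, and knockout mouse 4 the lowest knockout for *Klf1*, *Gata1* and *Epor*.

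The factors that set globin choice and progenitor growth also overlapped between genotypes. *Bcl11a*, the repressor of embryonic and fetal globin, differed by -0.10 (adjusted p = 0.52). *Sox6*, its partner, ran from 9.40 to 9.55 (median 9.50) in knockouts and from 9.14 to 9.49 (median 9.39) in wild types, with wild-type mouse 4 apart from the rest and a difference of 0.11 (adjusted p = 0.33). *Myb*, which keeps progenitors dividing, ran from 9.26 to 9.39 (median 9.27) against 9.01 to 9.28 (median 9.19). Its highest knockout, mouse 3, stood apart from 5 others between 9.26 and 9.29, and the difference was 0.12 (adjusted p = 0.17).

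Genes of mitochondrial transport and late maturation gave small differences of both signs. *Slc25a37*, the mitochondrial iron importer mitoferrin, and *Slc25a38*, which brings in glycine for haem, differed by 0.06 and -0.01. *Tspo2*, an erythroid translocator protein, ran from 9.06 to 9.76 (median 9.49) in knockouts and from 8.91 to 9.44 (median 9.27) in wild types. The groups overlapped, and knockout mouse 1 was the only knockout under 9.41; the difference was 0.24 ± 0.10 (SE, adjusted p = 0.21), and without that mouse it was 0.32 (adjusted p = 0.027). *Bpgm*, which makes the 2,3-bisphosphoglycerate that tunes haemoglobin, differed by 0.11, *Trim58*, a ubiquitin ligase of enucleating cells, by -0.03 and *Trim10* by -0.15 (adjusted p = 0.22).

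The positive median was smaller without 1 of the livers. Wild-type mouse 4 was the lowest of 12 livers for 23 of the 34 members, lay under all other wild types for 27 and under all knockouts for 28. Its mean over the members was 9.69, where the other 11 livers ran from 9.86 to 10.01. The low level was also found outside the members: this liver was lowest for the mean of the haem synthesis enzymes (11.11), of the other red cell membrane genes (10.33) and of the dividing cell markers (10.46, with the others from 10.56 to 10.72). The mean of the 8 hepatocyte markers other than *Tat* was 13.22 in this liver, with the others from 13.16 to 13.23. Its array median, 7.13, was within the range of the others, and the part of cell makeup in its low erythroid level was not tested. Without it, the median difference over the members was 0.05.

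**Figure D3:**
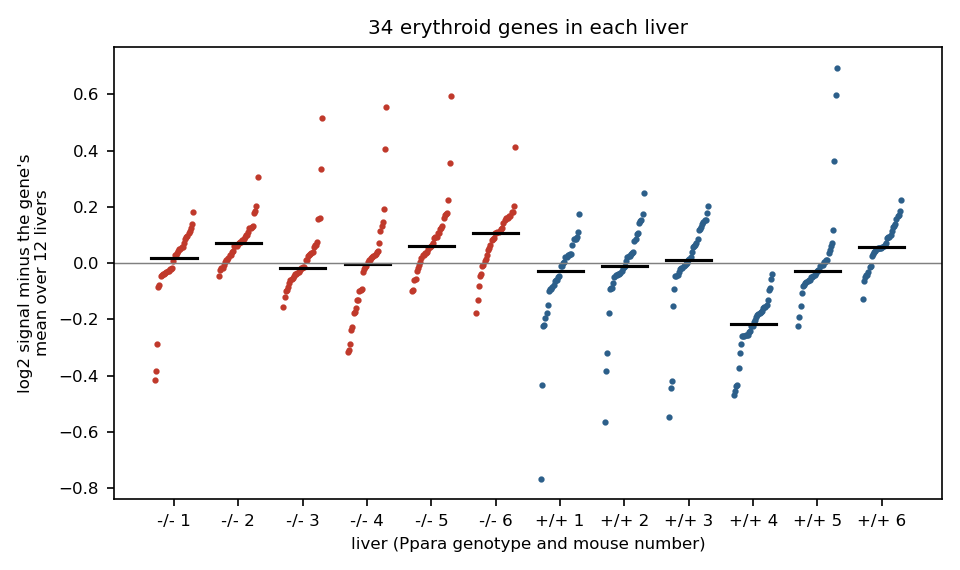
Log2 signal of the 34 erythroid genes in each liver, as the deviation from each gene's mean over 12 livers (red, *Ppara*-/-; blue, *Ppara*+/+; black bar, median of the liver). Wild-type mouse 4 has a median deviation of -0.21, and the farthest points of the other livers include the embryonic globins.

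Of the embryonic globins, *Hbb-y* and *Hba-x* had the largest differences and the widest spread among the members. *Hbb-y*, the εy chain, was at 7.81 ± 0.40 (SD, n = 6) in knockouts and 7.34 ± 0.57 in wild types, a difference of 0.47 with an interval from -0.04 to 0.98 (limma adjusted p = 0.28). *Hba-x*, the ζ chain, was at 8.24 ± 0.30 and 7.97 ± 0.40, a difference of 0.26 (interval -0.11 to 0.64, adjusted p = 0.44). *Hbb-bh1*, dim on every array, was at 5.89 ± 0.10 and 5.76 ± 0.28, a difference of 0.13 (interval -0.09 to 0.36, adjusted p = 0.55). These intervals leave room for differences in either direction.

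Their spread went with a number that each sample carries in its label, from WT_265 to WT_281 and here called the animal number. The labels do not explain it, and whether it orders litters, days or extractions is not given. *Hbb-y* in the livers in that order was 6.81, 7.16, 7.01, 7.03, 7.12, 7.62, 8.09, 8.13, 8.17, 7.69, 8.27 and 7.80. The 6 lowest numbers (WT_265 to KO_273, 2 knockouts and 4 wild types) thus lay at 6.81 to 7.62 and the 6 highest (KO_274 to WT_281, 4 knockouts and 2 wild types) at 7.69 to 8.27, without overlap. *Hbb-y* was the only member (2.94%) without overlap between these 6 and 6, against 0.808% of all genes. *Hba-x* ran from 7.66 to 8.23 in the lower-numbered livers and from 8.06 to 8.70 in the higher-numbered ones, which overlap, and *Hbb-bh1* from 5.41 to 5.86 and from 5.79 to 6.19.

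In a limma fit with genotype and animal number, chosen after seeing the data, the number's term was called for 2 of 34 members (5.88%), both rising with it, against 2.85% of all genes in either direction, 1.27% rising and 1.58% falling. *Hbb-y* rose by 0.79 ± 0.12 per 10 numbers (SE, adjusted p = 0.0065) and *Hba-x* by 0.52 ± 0.11 (adjusted p = 0.026). The same term for *Hbb-bh1* was 0.22 (adjusted p = 0.27). Sex was uneven along the number, since all 6 higher-numbered livers and 2 of the lower-numbered ones were female. With sex as a further term *Hbb-y* kept its call (0.74, adjusted p = 0.02) and *Hba-x* lost it (0.50, adjusted p = 0.066), and *Hba-x* also lost it without knockout mouse 1 (adjusted p = 0.14), wild-type mouse 2 (0.055) or wild-type mouse 5 (0.10). The 2 lower-numbered females had *Hbb-y* at 6.81 and 7.16, under every higher-numbered liver.

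The genotype difference of these genes was also taken within the 6 lowest and within the 6 highest numbers, with 2 livers of 1 genotype against 4 of the other in each. Among the lower numbers it was 0.40 for *Hbb-y*, 0.22 for *Hba-x* and 0.18 for *Hbb-bh1*. Among the upper numbers it was -0.01, -0.05 and -0.09. With animal number as a covariate the difference of *Hbb-y* was 0.39 (limma adjusted p = 0.058) and that of *Hba-x* 0.21 (adjusted p = 0.31). Over all 34 members the median difference was 0.11 among the lower numbers, with 31 positive, and 0.00 among the upper numbers, with 17 positive; wild-type mouse 4 belongs to the lower numbers.

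**Figure D4:**
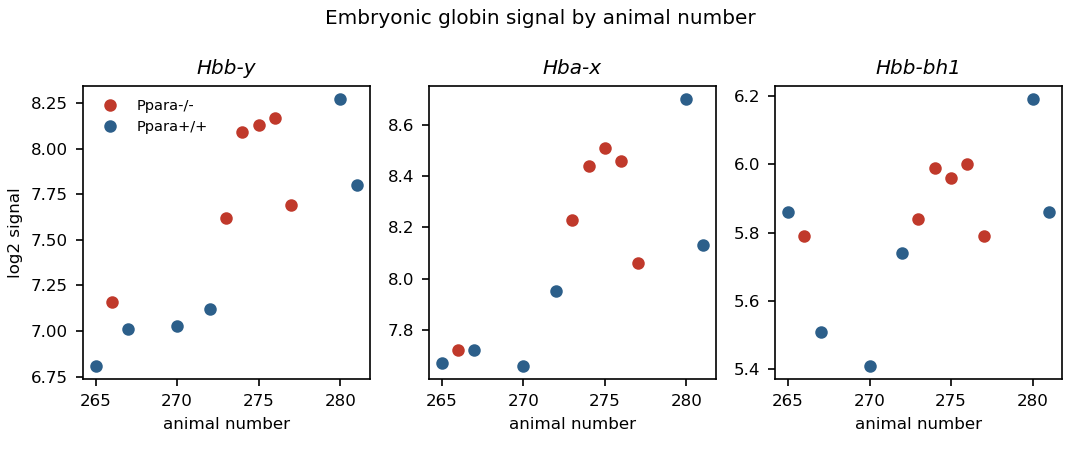
Log2 signal of the embryonic globin genes *Hbb-y*, *Hba-x* and *Hbb-bh1* in each liver (y axis, a scale per gene) against the animal number in its label (red, *Ppara*-/-; blue, *Ppara*+/+). For *Hbb-y* the 6 lowest numbers lie at 6.81 to 7.62 and the 6 highest at 7.69 to 8.27, with both genotypes on each side.

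Of the 63 genes measured in 7 further erythroid lists, 6 (9.52%) were called on the same term, 2 rising and 4 falling, against the 2.85% of all genes given above. They are named after their values were seen, and the cells that gave their signal in whole liver were not told apart. *Erfe*, the erythropoietin-induced hormone erythroferrone that lowers hepcidin, fell by 0.54 per 10 numbers (SE 0.06, limma adjusted p = 0.0029), with values of 7.76 to 8.08 in the lower-numbered livers and of 7.19 to 7.65 in the higher-numbered ones, without overlap. *Cish* and *Socs3*, feedback inhibitors that STAT5 induces, fell by 0.32 (adjusted p = 0.027) and by 0.26 (adjusted p = 0.017), and *Tfr2*, a transferrin receptor that pairs with EPOR, fell by 0.23 (adjusted p = 0.015). *Kit*, the stem cell factor receptor of early precursors, rose by 0.27 (adjusted p = 0.034), and *Mxi1*, a MYC antagonist needed for nuclear condensation, by 0.20 (adjusted p = 0.037). With sex as a further term *Erfe* and *Tfr2* kept their calls (adjusted p = 0.0015 and 0.046), while *Socs3*, *Kit*, *Mxi1* and *Cish* lost them (0.051, 0.06, 0.063 and 0.072). *Hbb-y* and *Erfe* kept the calls of the fit without sex when any 1 liver was left out, and the others lost them without at least 1. *Tfr2* was lost without knockout mouse 1 or wild-type mouse 6 (adjusted p up to 0.12), *Socs3* without either of these or wild-type mouse 5 (0.098), and *Cish* without wild-type mouse 2, 5 or 6 (0.13). *Kit* was lost without knockout mouse 1 or 5 or wild-type mouse 1, 5 or 6, and *Mxi1* without these, knockout mouse 6 or wild-type mouse 3 (both up to 0.19). In all, 1 rose and 2 fell on this term of the 11 genes measured for erythropoietin and stem cell factor signalling, and *Epor* itself had no call. The genotype term of the same fit was called for *Kit* (0.28, limma adjusted p = 0.014), *Mxi1* (0.20, 0.015) and *Tfr2* (-0.16, 0.034). It was called for 9.21% of all genes, and not for *Erfe*, *Cish* or *Socs3* (limma adjusted p = 0.28 to 0.91). Outside the erythroid lists the hepatocyte gene *Tat*, which rises at birth, fell by 1.35 per 10 numbers (adjusted p = 0.0085; 0.078 at most, without knockout mouse 1 or wild-type mouse 6). Of the 7 megakaryocyte and 7 B lymphoid markers measured 3 and 2 fell, where 1.58% of all genes did. *Itga2b* and *Cd79a* kept the call when any 1 liver was left out, and *Cd79b* lost it with sex as a further term (limma adjusted p = 0.072). The part of these cells or of fetal age in the globin values was not tested.

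**Figure D5:**
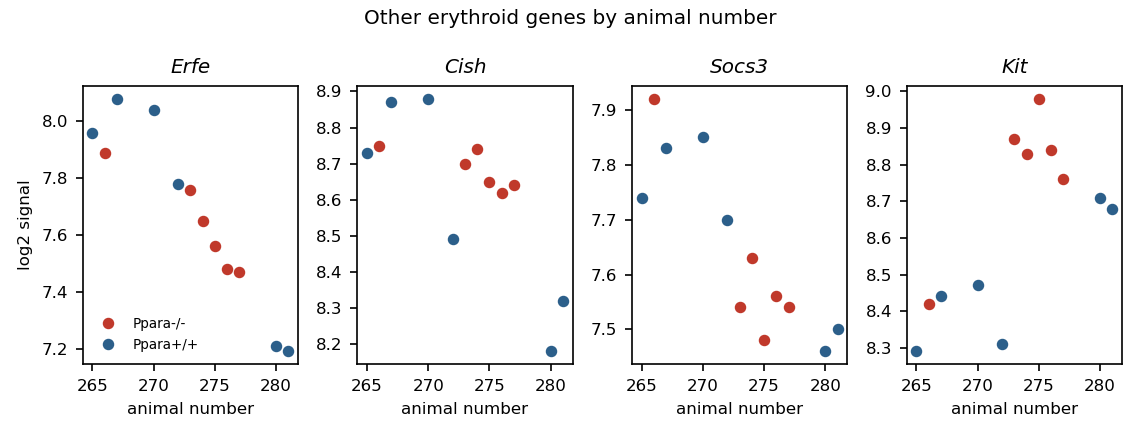
Log2 signal of *Erfe*, *Cish*, *Socs3* and *Kit* in each liver (y axis, a scale per gene) against the animal number in its label (red, *Ppara*-/-; blue, *Ppara*+/+). *Erfe* lies at 7.76 to 8.08 for the 6 lowest numbers and at 7.19 to 7.65 for the 6 highest.

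Beyond the members, 6 of the 63 genes in the further erythroid lists (9.52%) were called for genotype, near the 7.24% of all genes. Among 12 genes of nuclear and organelle clearance 2 rose in *Ppara*-/- livers: *Foxo3*, a stress factor of maturing erythroblasts, from 9.70 ± 0.10 to 9.98 ± 0.12 (SD, limma adjusted p = 0.015), and *Ulk1*, a kinase of mitochondrial clearance, from 9.50 ± 0.15 to 9.88 ± 0.17 (adjusted p = 0.016). Both calls held when any 1 liver was left out, and both genes are expressed in hepatocytes too. Among 11 genes of erythropoietin and stem cell factor signalling *Stat5b* rose by 0.25, *Bcl2l1*, the survival factor BCL-XL, by 0.21 and the kinase *Pim1* by 0.25 (adjusted p = 0.023, 0.025 and 0.025), while *Kitl*, the stem cell factor itself, fell by 0.27 (adjusted p = 0.041). All 4 calls were lost without knockout mouse 2 (limma adjusted p = 0.059 to 0.064), where 4.31% of all genes were called in place of 7.24%. *Pim1* was also lost without knockout mouse 4 or 6 or wild-type mouse 4 (0.057 to 0.061), and *Stat5b* without knockout mouse 5 or 6 (0.057 and 0.059). *Bcl2l1* was lost without knockout mice 4, 5 or 6 or wild-type mice 1, 2 or 4 (0.055 to 0.063), and *Kitl* without knockout mice 4, 5 or 6 or wild-type mice 1 to 5 (0.054 to 0.092). With sex as a covariate *Bcl2l1* was lost as well (limma adjusted p = 0.067).

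The remaining lists had no call. None passed of 9 other red cell membrane genes (smallest adjusted p 0.11, *Cd47*), 7 haem synthesis enzymes (0.26, *Alas2*), 6 iron uptake genes (0.15, *Flvcr1*), 9 red cell enzymes (0.21, *Hagh*) and 9 other blood regulators (0.056, *Runx1*). The probesets of the 6 adult globin genes listed name several genes each, and no adult globin was measured alone.

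Markers of the cells around the erythroid islands were read for the same livers. Of 10 macrophage markers 2 rose in *Ppara*-/- livers, *Csf1r* by 0.23 (limma adjusted p = 0.0096) and *Cd5l* by 0.40 (adjusted p = 0.041), where 3.42% of all genes rose. Of the others 5 had a negative difference, *Vsig4*, a Kupffer cell receptor, the largest at -0.25 (unadjusted p = 0.023), and the mean over the 10 ran from 8.69 to 8.85 in knockouts and from 8.65 to 8.79 in wild types. Of 9 hepatocyte markers only *Tat* was called, which fell by 1.61 (log2, adjusted p = 0.031), and the other 8 differed by 0.05 at most. The mean of those 8 ran from 13.19 to 13.22 in knockouts and from 13.16 to 13.23 in wild types. The calls of *Tat* and *Cd5l* were lost without any 1 of several livers (wild-type mice 1 to 4 and knockout mice 2, 4, 5 and 6 for both, knockout mouse 3 for *Cd5l*), at an adjusted p of 0.068 to 0.075 for *Tat* and of 0.073 to 0.099 for *Cd5l*. Both calls were also lost with sex as a covariate (limma adjusted p = 0.09 for *Tat* and 0.12 for *Cd5l*). Animal number as a covariate kept both calls, with *Tat* at -1.47 (limma adjusted p = 9.6e-04), where 9.21% of all genes were called. Among 7 stem and progenitor markers *Hlf* fell by 0.32 (limma adjusted p = 0.0032), and the cells that gave its signal in whole liver were not told apart. In that list 3 had a positive difference, *Kit* the largest at 0.30 (limma unadjusted p = 0.0062, adjusted p = 0.069). Among 7 endothelial and stellate markers *Des* fell by 0.39 (adjusted p = 0.018), and 2 had a positive difference. No marker was called of 10 for granulocytes (smallest adjusted p 0.07, *Ctsg*), 7 for megakaryocytes (0.82, *Treml1*), 7 for B cells (0.55, *Cd79a*), 6 for mast cells and basophils (0.15, *Mcpt8*) and 9 for dividing cells (0.27, *Mcm5*). All 5 lists have overlapping means between genotypes, and their part in the erythroid values was not tested.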

How the data were processed

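Total RNA of 12 whole livers with RNA integrity numbers above 8 was hybridised by the authors to Affymetrix Mouse Gene 1.0 ST arrays, and the deposited log2 values of 35556 probesets were made with RMA (background correction, quantile normalisation and probe summary). No source used here names the RMA version or the chip definition. GEO's platform annotation gave 1 symbol to 21789 probesets, several to 1621 and none to 12146, and 21698 of the first kind matched the RefSeq gene table. The probeset with the highest mean was kept for each of 19938 genes.

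Genotypes were compared with limma 3.58.1 in R 4.3.3 (lmFit and eBayes, two-sided, no covariate) over all genes, with Benjamini-Hochberg adjustment and a threshold of 0.05. The members and lists were chosen with earlier results of these data known. Named were *Ppara*, all members, and of each other list the called genes (4 at most) or that with the smallest p; exceptions are stated. The number of arrays, 6 per genotype, limits the precision. By the study's methods each genotype came from fewer litters than livers, so some fetuses share a litter. The p-values may therefore be too small, those of the animal-number term included. The fit was tested on simulated data. Alternatives covered normalisation, filters, covariates, rank tests and leaving out each liver. Figures were drawn with matplotlib 3.10.9. No deposited column was left out.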

Additional observations from a re-analysis of the deposited data

Results flagged for a closer look

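Of 70 groups of 6 livers examined (34 members and *Ppara*, in both genotypes), 4 held a liver whose gap to its nearest neighbour was large for the group's range; chance alone gives about 1 in 20 such groups. *Sptb* was 10.62 in wild-type mouse 4, where the other wild types ran from 10.86 to 10.98. *Sox6* was 9.14 in the same liver, with the others from 9.37 to 9.49. *Epor* was 8.98 in knockout mouse 4, under 5 knockouts between 9.25 and 9.37. *Myb* was 9.39 in knockout mouse 3, above 5 knockouts between 9.26 and 9.29.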

How the results depend on the processing

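No member was called lower under any of 27 alternatives. Members called higher, 0 as reported, numbered 2 of 34 after a further quantile normalisation (*Xk* and *Rhag*), where 9.4% of all genes were called in either direction. They numbered 1 among genes above the 50th percentile of signal (*Xk*, with 20.2% of the genes tested) and 3 with array weights (*Xk*, *Rhag* and *Tspo2*, with 13.8%). With 1 liver left out they numbered 0 to 2, beside 4.27% to 12.6% of all genes. There were 2 without knockout mouse 1 (12.6% of all genes) and 1 without wild-type mouse 6 (9.92%). With the mouse number as a replicate block 1 member was called (*Xk*, limma adjusted p = 0.038), beside 8.12% of all genes. Deviations of livers with the same number correlated at 0.02 to 0.39. The best match had the same number for knockout mice 1, 3 and 6 and another for mice 2, 4 and 5. These values do not settle whether the numbers pair the livers. The median difference over members moved from 0.09 to 0.00 within the 6 highest animal numbers; there the differences of *Hbb-y* (-0.01), *Hba-x* (-0.05) and *Hbb-bh1* (-0.09) had the opposite sign, as had *Epor* (0.01) within the 6 lowest. Members called on the animal-number term, 2 as reported, were 1 with sex added and 1 to 2 with 1 liver left out. The 6 calls in the other erythroid lists (7.24% of all genes called) became 11 above the 50th percentile (20.2%), 15 with array weights (13.8%), 0 and 2 within the lowest and highest numbers (0.968% and 1.12%), 10 with animal number and sex (7.43%) and 2 to 10 with 1 liver left out (4.27% to 12.6%). With sex alone as a covariate 4.26% of all genes were called. In these lists *Bcl2l1* then lost its call and *Runx1* gained one (limma adjusted p = 0.067 and 0.038). The exact Mann-Whitney test called 0 genes, *Ppara* (-1.01, adjusted p = 0.06) and these lists included. Its smallest p with 6 against 6 livers is 0.0022, which is 0.06 after adjustment here, so these 0 calls say nothing about stability. Apart from fewer livers or genes tested, the cause of these moves was not tested.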
